A study of Mus musculus and synthetic construct with 33 samples.

Results

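The transcription factors that build the heart were followed across 4 organs of mouse embryos, as the 10 genes Nkx2-5, Gata4, Gata5, Gata6, Hand1, Hand2, Mef2c, Hey2, Prox1 and Irx3. They were taken by symbol from the gene tables of heart, hindlimb, liver and lung, and each matched 1 of the 26754 genes listed. The embryos were at embryonic day E14.5 and belonged to the strain Trp53cor1tm1.1Vlcg on the background 129S6/C57BL/6 (N3, no Neo), shared by both genotypes. WT embryos carry Trp53cor1, the gene of the long noncoding RNA linc-p21 beside the cell cycle inhibitor gene Cdkn1a, and embryos labelled KO are the mutants of that strain. Polyadenylated RNA of whole organs was sequenced, with 3 WT and 3 KO libraries of heart, of hindlimb and of lung, and 5 WT and 4 KO libraries of liver. WT and KO shared all 3 litters in heart, both litters in lung, 3 of 4 in liver and 1 of 3 in hindlimb. Each table holds 1 pooled value per gene and genotype in FPKM (fragments scaled by transcript length and by the size of the library), so no spread between embryos can be given. The depth of the libraries is unknown from these tables.

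Heart muscle identity rests on a small set of DNA-binding proteins that act together on the same enhancers. The homeodomain protein NKX2-5, the zinc finger proteins GATA4, GATA5 and GATA6, the basic helix-loop-helix proteins HAND1 and HAND2 and the MADS-box protein MEF2C switch on sarcomere and natriuretic peptide genes, while HEY2, IRX3 and PROX1 refine the ventricle, the conduction system and the sarcomere. None of them is restricted to the heart in development: GATA factors also act in foregut organs, HAND2 in the limb bud, MEF2C in skeletal muscle, and PROX1 in hepatoblasts and lymphatic endothelium.

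The labels were checked first. Trp53cor1 was listed at 0 in KO heart, hindlimb and liver and at 0.00505 FPKM in KO lung, against 0.852, 0.710, 0.0351 and 0.104 FPKM in the WT organs. Each organ held its own defining markers: in WT, Myl2 was at 10103 FPKM in heart, Myog at 93.5 in hindlimb, Alb at 10195 in liver and Sftpc at 630.1 in lung. WT lung also held the atrial heart muscle gene Myl7 at 342 FPKM, where KO lung held it at 13.6.

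Across WT organs, all 10 genes were at 1 FPKM or more in heart, 9 in lung, 5 in hindlimb and 5 in liver. Heart had the highest level for 7 of the 10, lung for Gata5 and Irx3, and hindlimb for Mef2c. In 4 of the 10, Nkx2-5, Gata4, Hand1 and Hey2, WT heart was at least 4 times each other WT organ, a mark that 2.46% of all genes at 1 FPKM or more in some organ reached. The genes were picked as cardiac factors with earlier results known, so that count describes them and tests nothing. The organ tables were scaled separately, and the order of the organs was the same for all 10 genes when the columns were rescaled in either of 2 other ways. In bulk organs, fewer cells of a type and less RNA per cell cannot be told apart.

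Nkx2-5, whose protein binds beside GATA4 on many cardiac enhancers, was among the members most restricted to heart. The gene (ENSMUSG00000015579.4; mm10 chromosome 17, 26838664 to 26841565, minus strand, protein coding) was at 61.2 FPKM in WT heart and 71.8 in KO heart. It stood at 1.68 and 0.0350 FPKM in WT and KO lung, at 0.0155 and 0.181 in liver, and at 0.0110 and 0.00468 in hindlimb. The WT heart level was 36.3 times that of WT lung, the next organ. For Hand1 the same ratio to its next organ, liver, was 34.9, with no spread to rank these members by. The start sites of Nkx2-5 and Trp53cor1, both on chromosome 17, are 2237396 bases apart.

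The GATA genes divided the organs between them. Gata4 (ENSMUSG00000021944.9; chromosome 14, 63198922 to 63271692, minus strand), a zinc finger activator of cardiac and liver mesenchyme genes, had the highest value of any member, 116 FPKM in WT heart and 113 in KO heart. It was at 10.3 and 10.4 FPKM in WT and KO liver, at 6.44 and 3.22 in lung, and at 0.0542 and 0.127 in hindlimb. Gata6 (ENSMUSG00000005836.8; chromosome 18, 11049087 to 11085635, plus strand), which also serves lung epithelium and smooth muscle, was at 41.1 and 43.1 FPKM in heart, 18.6 and 16.2 in lung, 4.82 and 5.26 in liver and 0.949 and 1.22 in hindlimb, WT before KO. Gata5 (ENSMUSG00000015627.5; chromosome 2, 180325133 to 180340732, minus strand), known from endocardium, was instead highest in lung, at 23.4 FPKM in WT and 23.1 in KO. It was at 6.14 and 5.21 FPKM in heart, 0.762 and 0.821 in liver and 0.0157 and 0.0177 in hindlimb. FPKM is scaled by length, so shares within the family can be compared: of the summed Gata4, Gata5 and Gata6 level in WT, Gata4 made up 71.1% in heart and 65.0% in liver, Gata5 48.3% in lung, and Gata6 93.1% of the small sum in hindlimb.

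The HAND genes showed a narrow and a broad pattern. Hand1 (ENSMUSG00000037335.7; chromosome 11, 57828705 to 57832818, minus strand), a marker of the left ventricle and outflow tract, was at 8.80 FPKM in WT heart and 9.64 in KO heart, and at 0.340 FPKM or less in every other organ and genotype, listed at 0 in WT lung. Hand2 (ENSMUSG00000038193.3; chromosome 8, 57320983 to 57324517, plus strand), needed for the right ventricle and for the posterior limb bud, was at 38.9 and 42.9 FPKM in WT and KO heart and at 17.3 and 24.9 in hindlimb. It was at 4.32 and 4.62 FPKM in liver and at 1.04 and 0.177 in lung. Hand2 thus made up 81.6% of the summed HAND level in WT heart and 99.6% in WT hindlimb.

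Mef2c (ENSMUSG00000005583.10; chromosome 13, 83504034 to 83667079, plus strand), a partner of the myogenic regulators as well as of the cardiac factors, was higher in limb than in heart. Its values were 34.6 and 27.3 FPKM in WT and KO hindlimb, 18.4 and 17.1 in heart, 10.0 and 10.8 in lung and 4.22 and 3.52 in liver. Among the 4 Mef2 genes, Mef2c had the largest share in WT hindlimb, 44.2%, whereas Mef2a led in WT heart with 55.2% against 16.02% for Mef2c. Mef2b was at 0.0994 FPKM or less in all organs and genotypes.

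The remaining members are repressors and regional regulators. Hey2 (ENSMUSG00000019789.8; chromosome 10, 30832359 to 30842801, minus strand), a Notch-driven repressor that keeps atrial genes off in the ventricle, was at 58.0 and 60.1 FPKM in WT and KO heart. It lay between 0.646 and 2.48 FPKM in the other organs, where hindlimb and lung differed by a ratio of 1.28 in WT with no spread to judge it by. Hey2 was 77.7% of the summed Hey1, Hey2 and Heyl level in WT heart but 14.7% in hindlimb and 8.13% in lung, where Heyl led with 54.4%. Prox1 (ENSMUSG00000010175.7; chromosome 1, 190118038 to 190217276, minus strand) was at 14.6 and 11.9 FPKM in WT and KO heart, 6.13 and 6.25 in liver, 2.39 and 2.13 in hindlimb and 1.23 and 0.958 in lung. Heart and liver therefore held the most of this homeobox factor of heart muscle, hepatoblasts and lymphatic vessels.

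Irx3 (ENSMUSG00000031734.11; chromosome 8, 91798511 to 91807539, minus strand), an Iroquois homeobox gene of the ventricular conduction system, was the least heart-biased member beside Gata5 and Mef2c. It was at 14.4998 and 15.0 FPKM in WT and KO lung, 8.78 and 9.67 in hindlimb, 7.41 and 8.02 in heart and 0.0494 and 0.117 in liver. Heart and hindlimb differed by a ratio of only 1.19 in WT, which these tables cannot set against embryo variation. Its neighbour Irx5, on the same chromosome, was similarly spread (6.35, 11.3 and 8.93 FPKM in WT heart, hindlimb and lung). Irx4, the ventricular member of the family, was 50.1% of the summed level of the 6 Irx genes in WT heart, 6.71% in hindlimb and 0.0218% in lung.

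**Figure D1:**
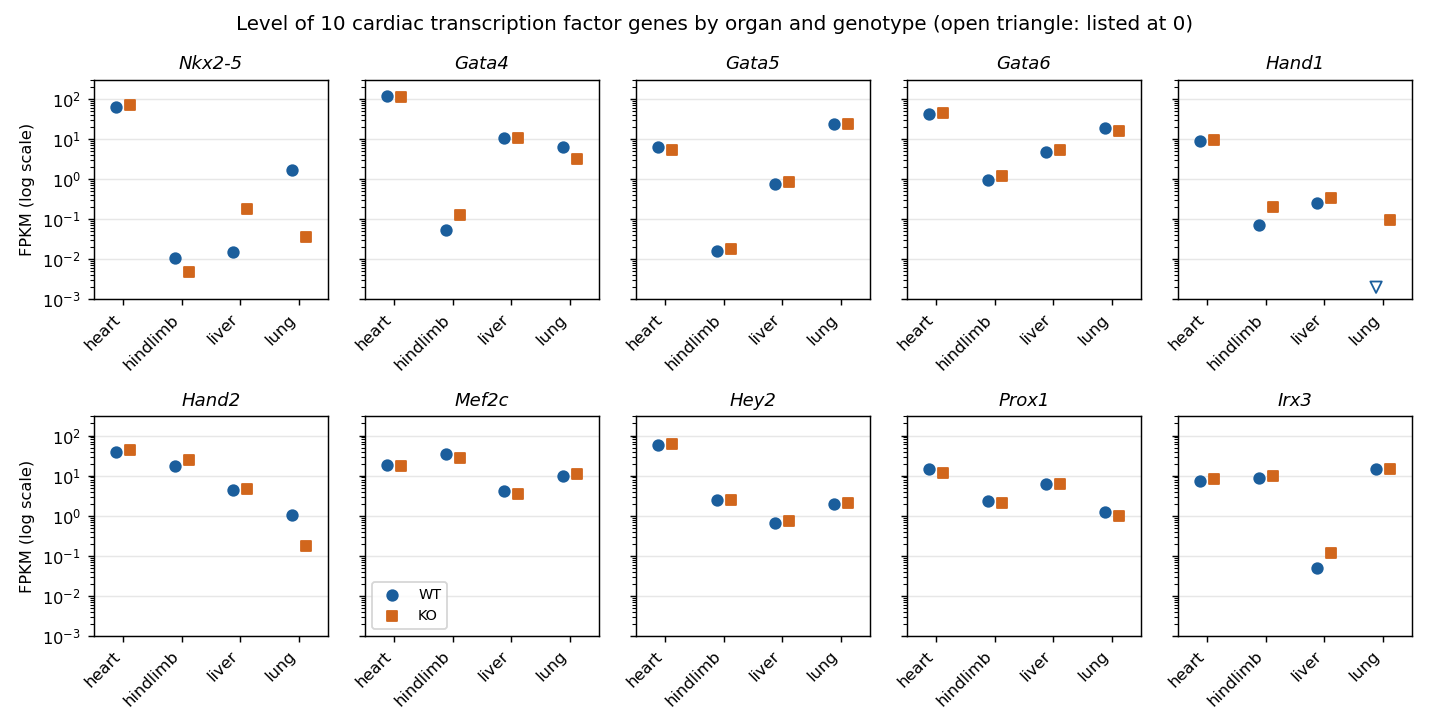
Pooled FPKM (log scale) of each of the 10 genes in heart, hindlimb, liver and lung, circles for WT and squares for KO, 1 value each and no error bars. Nkx2-5 is at 61.2 FPKM in WT heart and 1.68 in WT lung, while Gata5 and Irx3 are highest in lung and Mef2c in hindlimb; the open triangle for Hand1 stands for a value listed at 0.

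**Figure D2:**
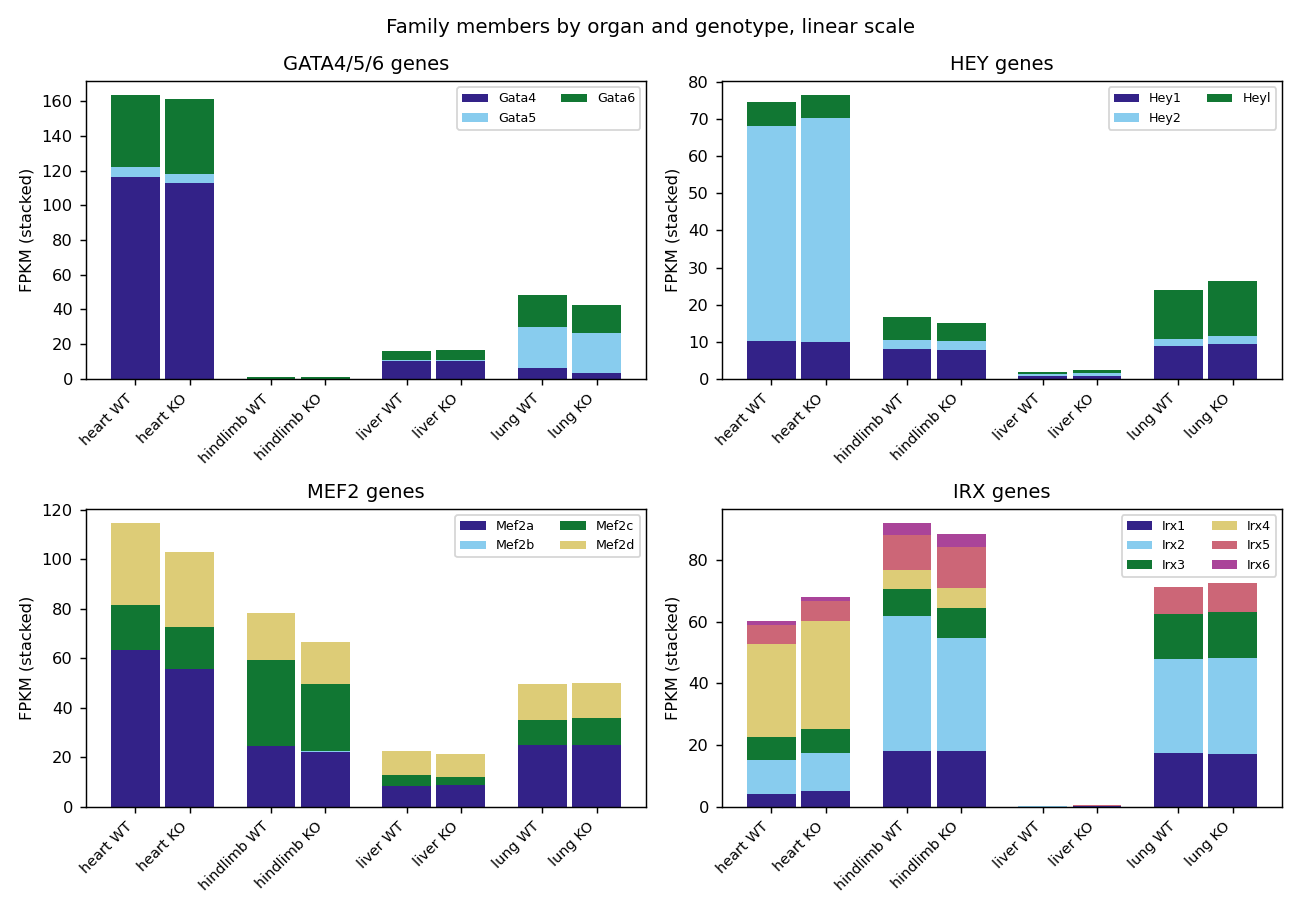
Stacked FPKM (linear scale from 0) of the Gata4, Gata5 and Gata6, Hey, Mef2 and Irx genes, 1 bar per organ and genotype. Gata4 fills most of the heart and liver bars and Gata5 is the largest piece of the lung bars, Hey2 stands out in heart, and Irx4 is visible in heart and hindlimb but not in lung.

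Promoters of 4 members are shown with the letters of motifs that cardiac factors are known to bind, and with TATAAA, which is not one of them. RefSeq windows (GRCm38.p6) from 250 bases before to 50 after a start site matched 7 of the 10 symbols; Gata4, Gata6 and Hand1 had no match. Nkx2-5 and Hand2 are printed because their lung values differed most between genotypes, and Gata5 and Irx3 because they were highest in lung. The windows are chr17:26841516-26841815 (minus strand) for Nkx2-5, chr8:57320733-57321032 (plus) for Hand2, chr2:180334630-180334929 (minus) for Gata5 and chr8:91801605-91801904 (minus) for Irx3. Capitals mark, on either strand, the GATA letters (A or T before GATA and A or G after it), the NKX2-5 letters TNAAGTG, the E-box CANNTG that basic helix-loop-helix proteins bind, the TEAD letters CATTCC, and TATAAA.
Nkx2-5: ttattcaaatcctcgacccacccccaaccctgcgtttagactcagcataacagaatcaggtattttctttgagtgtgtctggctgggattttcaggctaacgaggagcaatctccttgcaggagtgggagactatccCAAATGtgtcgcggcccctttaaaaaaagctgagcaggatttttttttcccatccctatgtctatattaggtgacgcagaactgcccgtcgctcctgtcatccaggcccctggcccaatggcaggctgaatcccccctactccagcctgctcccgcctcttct
Hand2: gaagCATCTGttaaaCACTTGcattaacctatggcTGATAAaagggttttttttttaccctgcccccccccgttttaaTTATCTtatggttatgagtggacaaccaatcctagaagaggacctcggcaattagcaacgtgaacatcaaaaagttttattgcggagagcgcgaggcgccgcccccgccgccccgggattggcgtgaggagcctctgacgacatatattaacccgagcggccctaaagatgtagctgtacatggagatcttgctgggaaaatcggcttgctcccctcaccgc
Gata5: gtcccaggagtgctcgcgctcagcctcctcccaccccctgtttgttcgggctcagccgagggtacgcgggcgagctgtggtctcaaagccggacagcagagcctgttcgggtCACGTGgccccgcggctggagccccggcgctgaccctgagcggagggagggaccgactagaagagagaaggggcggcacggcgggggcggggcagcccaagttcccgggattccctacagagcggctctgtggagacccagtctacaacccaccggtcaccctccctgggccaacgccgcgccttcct
Irx3: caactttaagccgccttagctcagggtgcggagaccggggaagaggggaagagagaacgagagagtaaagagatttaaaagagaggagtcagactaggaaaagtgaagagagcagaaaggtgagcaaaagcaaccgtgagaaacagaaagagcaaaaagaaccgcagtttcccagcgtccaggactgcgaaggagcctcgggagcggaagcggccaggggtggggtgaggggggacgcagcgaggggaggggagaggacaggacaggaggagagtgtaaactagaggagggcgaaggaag
Hand2 held a GATA match at -215 and another on the other strand at -172, and E-boxes at -246 and -235, counted from the start site to the first base of the match. Nkx2-5 and Gata5 held 1 E-box each, at -113 and -138, and Irx3 held none of the 5 motifs. The windows of Gata5 and Irx3 lie inside the gene spans given above, which start at 180340732 and 91807539 on the minus strand. For these genes the window therefore belongs to another start site than that of the measured span. No matches overlapped. Of 32851 promoter windows, 29.8% held the GATA letters, 72.3% an E-box, 11.5% the NKX2-5 letters, 14.7% the TEAD letters and 13.6% TATAAA. The matches are letters in a window and were not measured as binding.

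Genes with the most similar profiles were ranked over the 8 organ and genotype values by the root mean square difference of log2(FPKM + 1), after each gene's mean was taken off, among 15622 genes at 1 FPKM or more in some value. Nkx2-5 was nearest to Eef1a2, a muscle and neuron elongation factor (0.26), and Mlip, a lamin-interacting protein of muscle (0.27). Both were higher in WT than in KO lung (2.51 and 0.209 FPKM for Eef1a2). The ranking favours this by design, because the lung values enter it. Gata4 was nearest to the desmosome gene Pkp2 (0.48) and Chchd10 (0.70), Hand1 to Gpr22 (0.15) and Ccdc69 (0.18), Hey2 to Mtus2 (0.18) and Sorbs2 (0.25), and Prox1 to Dpf3 (0.14) and Fam78a (0.20). Irx3 was nearest to the growth factor gene Bmp4 (0.11) and to Serpine2 (0.16), and Mef2c to Atp9a (0.13) and Plce1 (0.15). The neighbours of Gata5 were Iigp1 (0.37) and Enpep (0.40), and those of Gata6 were Cystm1 (0.31) and Gm12840 (0.41). Hand2 had no close match, with Rragd at 0.68 and Cacng6 at 0.73, neither of which shares its higher value in KO hindlimb. These distances describe 8 pooled values, some from the same embryos.

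The next question was whether the levels of these factors differed between KO and WT within each organ. A gene was called where the q-value of the authors' test was under 0.05. Of 40 pairs of gene and organ, the authors tested 32 and 1 was called, Hand2 in lung, while 5 had an unadjusted p under 0.05 in the authors' deposited table. Whether any gene's change differed between organs was not tested.

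In heart, none of the 10 members was called, against 0.228% of the 15336 genes tested, and none had an unadjusted p under 0.05 in the authors' test, where 2.95% of all tested genes did. The log2 ratios of KO to WT in the authors' deposited table ran from -0.30 for Prox1 (p = 0.0750) to 0.23 for Nkx2-5 (p = 0.117). Of the 10, 6 were above 0, where 47.1% of all tested genes were, and their median was 0.06, beside -0.01 over all tested genes. Gata4 (-0.04), Hey2 (0.05), Gata6 (0.07) and Hand2 (0.14), the most abundant members besides Nkx2-5, had log2 values within 0.15 of 0 in the authors' deposited table. For comparison, Cdkn1a went from 20.5 to 6.84 FPKM in the same hearts (log2 ratio -1.59, q = 0.0256) in the authors' deposited table.

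Partners, paralogs and targets of the factors in heart were likewise uncalled. Of 26 partner and paralog genes, among them the GATA cofactors Zfpm1 and Zfpm2, the other Mef2, Hey and Irx genes, Srf and Myocd, 22 were tested, with 0 calls and 0 genes at an unadjusted p under 0.05 in the authors' deposited table. All 18 target genes of the sarcomere, calcium handling and natriuretic peptides were tested and 0 were called. Only 0.228% of all tested heart genes were called, so 0 calls in lists this short say little. Before adjustment, 2.95% of all tested heart genes passed 0.05 in the authors' test. Among the targets 2 did so, and among the partners and paralogs 0. The alpha myosin gene Myh6 went from 332 to 186 FPKM (log2 ratio -0.84, p = 0.00255, q = 0.455) and the calcium release channel gene Ryr2 from 20.0 to 14.51 (-0.47, p = 0.00920, q = 0.860) in the authors' deposited table. The 5 atrial markers all had lower KO values, including Sln at 21.7 and 12.7 FPKM (p = 0.00110, q = 0.272), and 3 of 4 ventricular markers had higher ones, with no call in either list in the authors' deposited table. Among all tested heart genes 47.1% had a log2 ratio above 0, and a contrast between these short lists was not tested. Beside the lower value of Prox1, 8 of 9 endothelial and lymphatic genes had lower KO values without a call, their sum going from 256 to 223 FPKM; its part in the Prox1 value was not tested.

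In hindlimb, none of the 6 tested members was called, against 0.623% of 16526 genes, and 2 had an unadjusted p under 0.05 in the authors' test, where 5.97% of all tested genes did. The hindlimbs came from 2 WT and 2 KO litters of which only 1 was in both genotypes, so for all hindlimb differences given here litter and genotype are partly confounded and cannot be told apart. Hand2 went from 17.3 to 24.9 FPKM, a log2 ratio of 0.53 (p = 0.000350), and missed the threshold narrowly at q = 0.0521 in the authors' deposited table. Adjusting the same p-values over genes with a mean of at least 1 FPKM gave 0.0486, so this value lies on either side of 0.05 with the choice of genes. Beside it, all 9 tested limb patterning genes had higher KO values, 6 with an unadjusted p under 0.05 and 0 called, with a median log2 ratio of 0.49 against 0.01 over all tested genes, of which 52.5% had higher KO values, in the authors' deposited table. Among them Msx1 went from 2.30 to 4.03 FPKM (q = 0.119) and Hoxa13 from 6.00 to 8.73 (q = 0.267) in the authors' deposited table. Sox9, a gene of limb cartilage taken here from the lung epithelium list, rose (12.7 FPKM in WT and 19.2 in KO, q = 0.0123) in the authors' deposited table. Of the sympathetic neuron genes, which share Hand2 as a regulator, 2 were tested in hindlimb and 0 of them were called in the authors' deposited table.

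Mef2c was the other hindlimb member with an unadjusted p under 0.05. It went from 34.6 to 27.3 FPKM, a log2 ratio of -0.34 (p = 0.0111, q = 0.390), in the authors' deposited table. All 10 skeletal muscle genes had lower KO values in the same limbs and 3 fell past the threshold, the creatine kinase gene Ckm (6.90 to 2.75 FPKM) and the fast fibre genes Mylpf (642 to 439) and Tnni2 (70.1 to 43.6), each at q = 0.0123, where 0.351% of all tested genes fell, in the authors' deposited table. Their summed level went from 1362 to 922 FPKM, a KO to WT ratio of 0.677, where the ratio for Mef2c was 0.790. The cardiac targets, many of which developing limb muscle also expresses, had lower KO values in 13 of 14 tested cases, 8 with an unadjusted p under 0.05. The 3 called were Ankrd1 (4.83 to 2.53 FPKM, q = 0.0123), Myh7 (15.6 to 9.85, q = 0.0123) and Tnnt2 (92.3 to 63.8, q = 0.0215), in the authors' deposited table. Myl4, from the atrial list, also fell (214 FPKM in WT and 151 in KO, q = 0.0355) in the authors' deposited table. The part of muscle content in the Mef2c value was not tested. Gata6 (0.949 and 1.22 FPKM), Hey2 (2.48 in both genotypes), Prox1 and Irx3 had p-values of 0.167 to 0.997, and no test is given for Nkx2-5, Gata4, Gata5 and Hand1, all at 0.197 FPKM or less, in the authors' deposited table. Of 23 tested partners and paralogs 0 were called in hindlimb and 4 had an unadjusted p under 0.05, of which Isl1 was higher in KO (2.62 and 3.97 FPKM, p = 0.0246) and Heyl (6.40 and 4.74, p = 0.00855) and Gata3 (6.41 and 4.67, p = 0.0231) were lower, in the authors' deposited table. Smyd1, a muscle methyltransferase gene that works with the cardiac factors, was the fourth (22.7 and 17.4 FPKM, p = 0.0259) in the authors' deposited table.

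In liver, none of the 7 tested members was called, against 0.406% of 14275 genes, and none had an unadjusted p under 0.05 in the authors' test, where 2.79% of all tested genes did. The KO value was higher for 6 of the 7, as for 49.1% of all tested genes. Prox1, the hepatoblast regulator, was at 6.13 FPKM in WT and 6.25 in KO (log2 ratio 0.03, p = 0.847), and Gata4 at 10.3 and 10.4 (0.00, p = 0.997), in the authors' deposited table. Mef2c had the smallest p-value (4.22 and 3.52 FPKM, log2 ratio -0.26, p = 0.0977) in the authors' deposited table. The authors did not test Nkx2-5, which was at 0.0155 FPKM in WT and 0.181 in KO. Of 16 tested partners and paralogs 0 passed, and 2 had an unadjusted p under 0.05, Isl1 (0.303 and 0.744 FPKM, p = 0.0144) and Tead1 (2.18 and 2.95, p = 0.0235), in the authors' deposited table. Of 14 tested cardiac targets, Myh6 rose from 0.104 to 0.779 FPKM (log2 ratio 2.90, q = 0.0140) and was the 1 called, where 0.301% of all tested genes rose, in the authors' deposited table. Some genes of other tissues were higher in the same livers and others were lower. Epcam, an epithelial gene, rose from 0.393 to 2.63 FPKM and the neuronal gene Stmn2 from 0.245 to 1.14, each at q = 0.0140 in the authors' deposited table. All 7 tested mesothelial genes had higher KO values, 3 with an unadjusted p under 0.05 and 0 called, and Myl7 went from 7.35 to 11.46 FPKM (p = 0.0170, q = 1), in the authors' deposited table. All 6 tested skeletal muscle genes had lower KO values, 2 with an unadjusted p under 0.05 and 0 called, in the authors' deposited table. The 2 tested ventricular markers were also lower and uncalled, Myl2 at 1.91 and 0.0393 FPKM and Myl3 at 0.630 and 0.123. Their p-values were 0.05015 and 0.03545 in the authors' test. The part of any of these tissues in the Myh6 value was not tested.

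In lung, 1 of 9 tested members was called, against 0.707% of 14709 genes (0.619% lower in KO), and 3 had an unadjusted p under 0.05 in the authors' test, where 4.68% of all tested genes did. Hand2 fell from 1.04 to 0.177 FPKM, a log2 ratio of -2.55 (p = 5e-05, q = 0.00845), in the authors' deposited table. Nkx2-5 went from 1.68 to 0.0350 FPKM, a log2 ratio of -5.59, but with p = 0.0247 and q = 0.869 it was not called in the authors' deposited table. Gata4 went from 6.44 to 3.22 FPKM, a log2 ratio of -0.999 (p = 0.00150, q = 0.151), in the authors' deposited table. These 3 genes had lower KO values together, while the 4 members at more than 10 FPKM in WT lung had log2 ratios nearer 0. Gata5 (-0.02), Gata6 (-0.20), Irx3 (0.05) and Mef2c (0.10) had log2 ratios with p-values from 0.162 to 0.871 in the authors' deposited table. Hey2 stood at 1.94 and 2.09 FPKM (p = 0.636) and Prox1 at 1.23 and 0.958 (p = 0.0891) in the authors' deposited table. Of the 9 tested members 3 had higher KO values, where 49.8% of all tested genes did. Hand1, at 0.0941 FPKM in KO lung and listed at 0 in WT lung, was not tested.

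**Figure D3:**
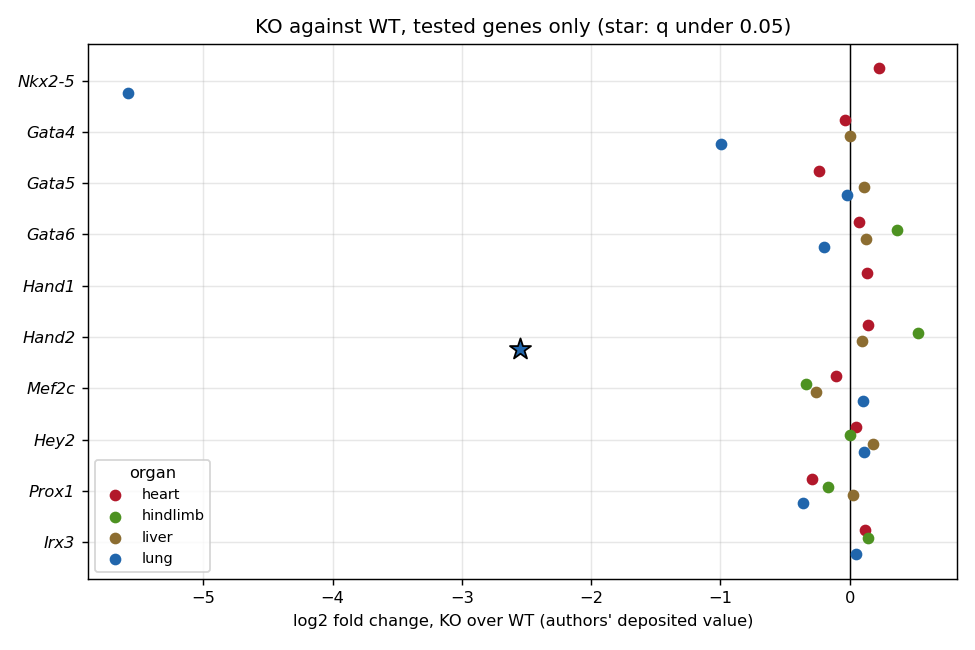
Log2 ratio of KO to WT from the authors' deposited table for each gene and organ that they tested, 1 point each with no error bars; the star marks a q-value under 0.05. All points lie between -0.36 and 0.53 except 3 of lung, Nkx2-5 at -5.59, Hand2 at -2.55 and Gata4 at -0.999.

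Genes of heart muscle also had lower KO values in lung. All 5 atrial markers had lower KO values and 3 fell past the threshold, Myl7 (342 to 13.6 FPKM), Myl4 (179 to 7.55) and Bmp10 (0.981 to a listed 0), each at q = 0.00845 in the authors' deposited table. Nppa, which went from 62.0 FPKM to a listed 0, and Sln, from 19.5 to 0.134, were not called (p = 0.122 and 0.147) in the authors' deposited table. The summed atrial level went from 604 to 21.3 FPKM, with 0 of 5 markers at 0 in WT and 2 in KO. All 18 cardiac target genes had lower KO values and 11 were called lower, beside 0.619% called lower and 49.8% with a log2 ratio above 0 among all tested lung genes, in the authors' deposited table. The called targets with the largest finite log2 ratios were the titin-associated gene Ankrd1 (19.9 to 0.307 FPKM), Mybpc3 (8.43 to 0.327) and Csrp3 (45.1 to 1.75), each at q = 0.00845 in the authors' deposited table. The thin filament genes Tnnt2 (108 to 4.58 FPKM), Tnni3 (37.5 to 3.44) and Actc1 (169 to 27.97) and the myosin gene Myh6 (34.9 to 1.65) fell at the same q, and Ryr2 (0.784 to 0.483) at q = 0.0450, in the authors' deposited table. The 4 ventricular markers summed to 5.17 FPKM in WT lung and 1.46 in KO lung, and 2 of the 3 tested fell past the threshold, Myl2 (1.38 to 0.120 FPKM, q = 0.00845) and Myl3 (2.502 to 0.353, q = 0.0495), in the authors' deposited table. Irx4, which was not tested in lung, was at 0.0155 and 0.00670 FPKM. The ventricular markers Myl2, Myl3 and Myh7 and the atrial markers Nppa and Bmp10 are also among the 18 target genes. Calls of these genes are therefore counted in both lists. Smyd1, with the largest log2 ratio among the tested partner genes, went from 4.88 to 0.962 FPKM (p = 0.0173, q = 0.762), and of 20 tested partners and paralogs 0 were called in the authors' deposited table.

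The size of the lung difference was set against heart for each gene. The WT minus KO difference in lung equalled 2.70% of the WT heart level for Nkx2-5, 2.77% for Gata4 and 2.21% for Hand2. Over the 18 target genes it ran from 0.0124% for Myl2 to 10.01% for Myh6, with a median of 1.99%. For the 5 atrial genes Bmp10, Myl4, Nppa, Myl7 and Sln it was 2.22%, 6.13%, 8.05%, 19.1% and 89.1%, and for the ventricular genes Myl2, Myl3, Myh7 and Irx4 it lay between 0.0124% and 0.0691%. Sln and Myl4 were not particular to heart. In WT hindlimb Sln was at 56.6 FPKM, 261% of its WT heart level, and Myl4 at 214 FPKM. Myl7, Nppa and Bmp10 were at 0.225 FPKM or less in WT hindlimb. Of the other members, 4 had a difference of the opposite sign, Hey2 with -0.27%, Hand1 with -1.07%, Mef2c with -3.99% and Irx3 with -7.23%. For Gata5, Gata6 and Prox1 the difference was 5.87%, 5.74% and 1.88%, none of them called in lung. Remaining KO lung levels were 0.0573% of WT heart for Nkx2-5, 0.456% for Hand2 and 2.77% for Gata4. Heart and lung values come from tables that were scaled separately, and matching their medians would move lung by -0.25 relative to heart on the log2 scale. The part of atrial or other muscle in the values of Nkx2-5, Gata4 and Hand2 was not tested.

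**Figure D4:**
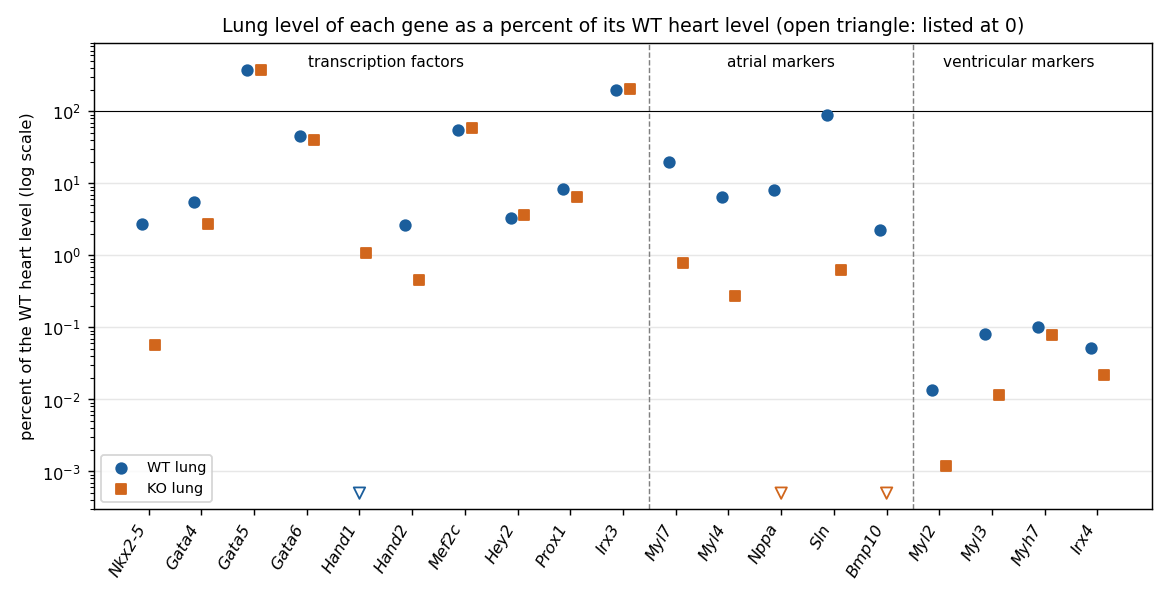
Level in WT lung (circles) and KO lung (squares) as a percent of the WT heart level on a log scale, for the 10 factors, 5 atrial and 4 ventricular marker genes; open triangles are values listed at 0. Nkx2-5, Gata4, Hand2 and the atrial markers lie lower in KO than in WT, whereas Gata5, Gata6, Mef2c, Hey2 and Irx3 keep nearly the same level. The ventricular markers are at 0.102% or less and also lie lower in KO, with Myl2 at 0.0136% in WT and 0.00119% in KO.

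Other cell types of lung were read in the same tables. Among all tested lung genes, 49.8% had a log2 ratio above 0 and 0.619% were called lower, in the authors' deposited table. Mesothelial and epicardial genes, a tissue that also expresses Gata4, had lower KO values in 7 of 8 cases, and Aldh1a2, the retinoic acid synthesis gene, fell from 34.5 to 23.3 FPKM (log2 ratio -0.57, q = 0.0242) in the authors' deposited table. Their sum went from 251.3 to 210 FPKM, and Upk3b (37.4 and 26.2 FPKM, q = 0.0581) and Tbx18 (1.03 and 0.572, q = 0.143) were not called in the authors' deposited table. Lung epithelial genes summed to 1048 and 1065 FPKM, with 0 of 9 called, and all 9 endothelial and lymphatic genes had higher KO values, with 0 called, in the authors' deposited table. Of the skeletal muscle genes, all 6 tested had lower KO values and 2 fell past the threshold, Ckm (5.30 to 0.691 FPKM) and the embryonic myosin gene Myh3 (0.561 to 0.180), each at q = 0.00845 in the authors' deposited table. Their summed level went from 20.2 to 8.82 FPKM. This list does not separate skeletal from heart muscle. In WT heart and WT hindlimb, Ckm was at 223 and 6.90 FPKM and Acta1 at 97.7 and 252. Mylpf, at 8.52 FPKM in WT heart and 642 in WT hindlimb, was at 4.79 in WT lung and 4.30 in KO lung. Of the sympathetic neuron genes, Dbh went from 0.617 to 0.0721 FPKM (p = 0.0156, q = 0.728) in the authors' deposited table. The parts of these tissues in the Hand2, Gata4 and Nkx2-5 values were not tested.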

How the data were processed

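The FPKM values of each gene and genotype were deposited by the authors, pooled over the libraries of a genotype, per the file headers. The log2 fold change (treated as a score, since it passes 100 in size for a few genes near 0), the test statistic (a score), the p-value and the q-value were also deposited, per the file headers. Per the submitters' processing notes, TopHat2, CASAVA 1.8.2 and the build mm10 were used; which program made the values was not given in the sources used here. Exon rows were reduced to 1 row per gene with Python 3.11.15 and pandas 2.3.3. Calls used the authors' q-value at 0.05 over all genes they tested; Benjamini-Hochberg adjustment of their p-values returned their q-values to within 5.18e-07. Level comparisons across organs carry no test. Alternatives were other thresholds, gene filters and scalings. The functions were tested on simulated data. The 10 members and the 12 other gene lists were chosen with earlier results of these data known, and some genes belong to several lists. All members were named, then the called genes of each list, tested genes with the largest changes (up to 4 per list and organ), and the 2 nearest profiles per member; paralogs of members, marker levels and some targets were named after their values were seen. The reporter assay was not used.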

Additional observations from a re-analysis of the deposited data

How the results depend on the processing

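No library could be left out, because the tables hold 1 pooled value per genotype. No paired analysis was possible because the same tables carry no replicate. The count of called members stayed at 0 in heart and liver at a q-value under 0.10, at an unadjusted p under 0.05, adjusted over genes with a mean of at least 1 FPKM, adjusted without chromosome 17, and at 2-fold on log2(FPKM + 1). In hindlimb the count of 0 became 1 at a q-value under 0.10 and 1 over genes with a mean of at least 1 FPKM, Hand2 both times, and 2 at an unadjusted p under 0.05, Hand2 and Mef2c. In lung the count of 1 became 3 at an unadjusted p under 0.05 (Gata4, Hand2 and Nkx2-5), and 0 over genes with a mean of at least 1 FPKM, because Hand2 itself is below that mean. The same count of 1 at 2-fold on log2(FPKM + 1) was Nkx2-5 in place of Hand2. The count of 4 members led by WT heart became 7 at a ratio of 2 and stayed at 4, with the same 4 genes, in both rescalings, with 1 or 0.1 added, over genes at 0.1 FPKM or more, and in the KO columns. Of 58 other adjusted values of single members, 57 kept their side of the threshold and Hand2 in hindlimb crossed it. Depth is not stated, so no counting error can be given for members below 1 FPKM.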

Other observations

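Genes of blood and liver cells differed between genotypes in heart, beside the cardiac factors. In KO heart all 8 erythroid genes had lower values than in WT and 2 fell past the threshold, the anion exchanger gene Slc4a1 (12.6 to 6.14 FPKM) and Hemgn (0.926 to 0.276), each at q = 0.0256, beside 0.228% of all tested heart genes called in either direction, in the authors' deposited table. The hepatoblast genes Afp (10.3 to 1.71 FPKM) and Alb (5.98 to 1.63) also fell in KO heart, each at q = 0.0256 in the authors' deposited table. Both also fell in KO lung, Afp from 4.00 to 1.42 FPKM and Alb from 3.85 to 1.56, at q = 0.00845 in the authors' deposited table. In hindlimb 6 of the 8 erythroid genes had higher KO values and 2 had lower ones. The embryonic globin genes Hbb-y (385 to 782 FPKM) and Hba-x (28.3 to 54.0) rose, each at q = 0.0123, in the authors' deposited table. These 2 were the only ones of the 8 with an unadjusted p under 0.05 in the authors' test. Among all tested hindlimb genes, 0.623% were called and 52.5% had higher KO values. Of 8 hepatoblast genes in liver itself 0 were called, with 0 at an unadjusted p under 0.05 in the authors' test.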
